A study of Mus musculus with 7 samples.

Results

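Caspases are proteases that cut their substrates after aspartate, and 8 genes of this system were followed here: the caspases Casp1, Casp2, Casp4, Casp6, Casp8 and Casp9, the caspase-9 activator Apaf1 and the caspase-8 regulator Cflar. They were chosen by name, with earlier results of these data known. All 8 were found among the 21902 genes named in the deposited annotated table, each on 1 probe set, and all 8 passed the filter on dim genes. The cells were regulatory T (Treg) cells, CD4 T cells that depend on the transcription factor Foxp3 and hold immune responses in check. Sorted CD4+ YFP+ cells of spleen and pLN came from Foxp3Cre Pggt1bfl/fl chimeras (Pggt1b KO, 3 arrays) and from Foxp3Cre Pggt1bfl/wt chimeras (Pggt1b Het, 4 arrays). Both groups thus carried the Cre driven with Foxp3 and at least 1 floxed allele, so the Het cells are the comparison and wild-type cells were not analysed here. Age, sex, the number of animals behind a sample and the host cells of the chimeras were not given in the sources used here.

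Pggt1b encodes a subunit of the type I enzyme that attaches a geranylgeranyl lipid to certain proteins, which anchors them to membranes. Caspases fall into groups by role. Initiator caspases are activated on a platform: caspase-8 on death receptors, caspase-9 on the apoptosome that Apaf1 forms once cytochrome c leaves the mitochondria, and caspase-2 on the PIDDosome. Caspase-8 and caspase-9 then cleave executioner caspases, which dismantle the cell. The inflammatory caspases, caspase-1 and the mouse caspase-11 that Casp4 encodes, instead process interleukin-1 family cytokines or gasdermin D and can cause pyroptosis, a lytic form of death. In T cells caspase-8 and Cflar also limit necroptosis and shape death by Fas. All of these proteins act by cleavage and binding, which RNA levels do not show.

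Each sample was 1 single-colour array and values are the authors' RMA values on the log2 scale. A floor was set for each array at the 95th percentile of its 1117 olfactory receptor probe sets, which lay between 5.48 and 5.77. Changes are KO minus Het and were tested with limma over the 13083 genes that exceeded the floor on at least 3 arrays, with Benjamini-Hochberg adjustment over all of them and a threshold of 0.05. Of these genes 5.79% were called, 2.55% higher and 3.24% lower in KO cells. Pggt1b read 6.60 ± 0.02 in KO and 6.97 ± 0.18 in Het cells (SD, n = 3 and 4), with an adjusted p of 0.126 (limma), and whether its probes lie in the deleted stretch was not given in those sources. Foxp3, which defines the sorted cells, read 11.24 ± 0.11 in KO and 11.18 ± 0.11 in Het cells. Macrophage and monocyte markers stood apart by genotype. The mean of the 20 listed genes was 6.88 to 8.10 on KO arrays and 5.76 to 6.17 on Het arrays. Of the 19 that were tested 12 rose. Among the 12, Mrc1, C1qc, Cd14 and Mertk were below the floor on every Het array and passed the filter only through the KO arrays. KO replicate 1 had the highest mean of the 20 markers, 8.10. In RNA from many cells, fewer cells of a type and less RNA per cell cannot be told apart.

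Among the 8 genes, the 2 inflammatory caspases Casp1 and Casp4 fell in KO cells, the initiator caspase Casp2 rose, and the other 5, which serve the death receptor and apoptosome routes or execution, did not pass. That is 1 of 8 higher and 2 of 8 lower, where 2.55% and 3.24% of all tested genes were called in those directions. The 8 genes were chosen with earlier results of these data known, so such shares are a description only. The median log2 change of the 8 was -0.11, against -0.02 over all tested genes, and the median size of change without regard to sign was 0.23 against 0.15. In 4 of the 8 genes the KO and Het arrays did not overlap, where 19.5% of all tested genes had groups that did not overlap. KO lay below Het in 3 of them and above in 1, against 9.82% and 9.68% of all tested genes. The group did not move one way: its called members include changes in both directions.

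**Figure D1:**
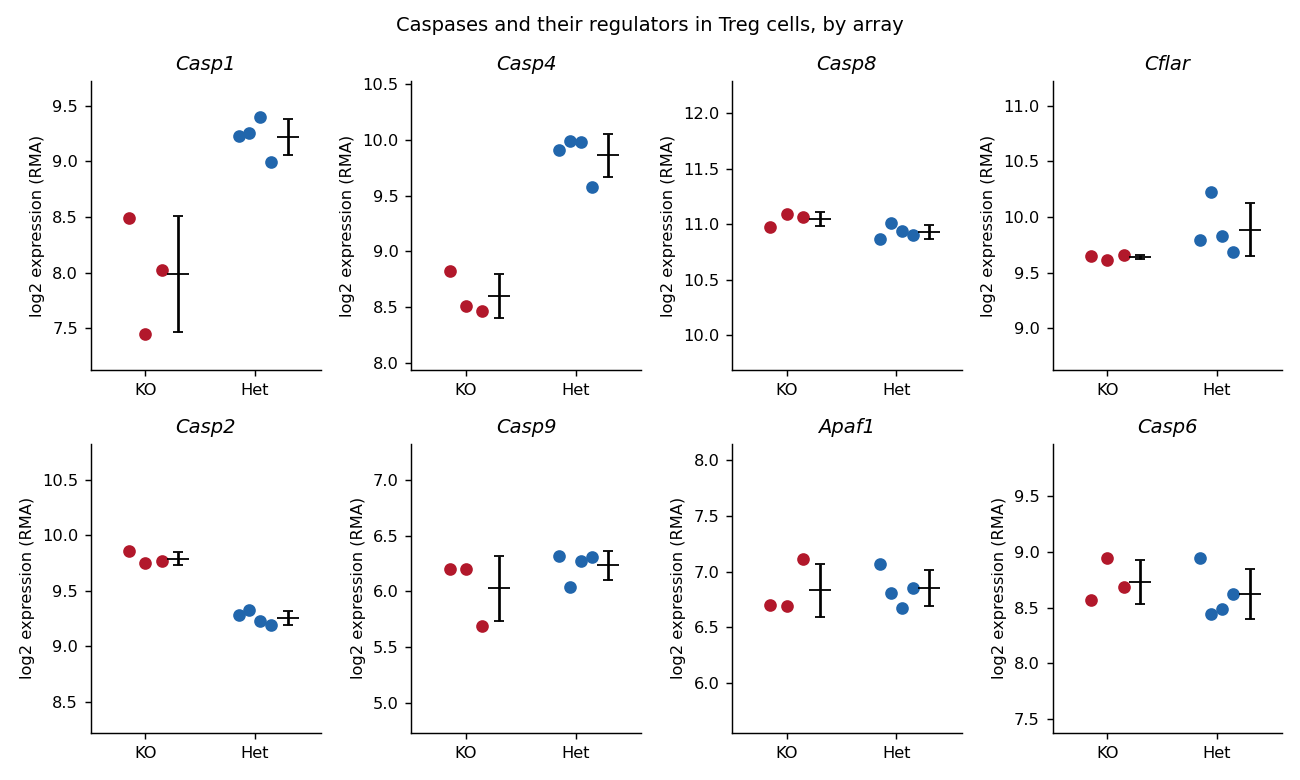
Log2 expression (RMA) of the 8 genes on each array, with KO arrays in red on the left and Het arrays in blue on the right of each panel; the dash and bar beside each group are its mean and SD, and every panel spans the same number of log2 units. Casp1 and Casp4 lie lower and Casp2 higher on all 3 KO arrays, and the Cflar groups are separated only by 0.02.

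Casp4 encodes mouse caspase-11, the sensor of cytosolic lipopolysaccharide that cuts gasdermin D. It read 8.82, 8.51 and 8.47 on the KO arrays, against 9.91, 9.99, 9.98 and 9.58 on the Het arrays. All 3 KO values lay below the lowest Het value, by a gap of 0.75, and the spread within each group was small beside that gap. The change was -1.27 ± 0.14 (SE), a 2.40-fold fall with a 95% interval of -1.59 to -0.95 and an adjusted p of 0.000734 (limma). By p it ranked 65 of the 13083 genes tested.

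Casp1 encodes caspase-1, the protease of the canonical inflammasome that matures interleukin-1 beta and interleukin-18. It read 8.49, 7.45 and 8.03 on the KO arrays, against 9.23, 9.25, 9.40 and 9.0 on the Het arrays. The groups did not overlap, with a gap of 0.51, but the KO arrays spread more widely than the Het arrays (SD 0.52 and 0.17). The change was -1.23 ± 0.21 (SE), a 2.35-fold fall with a 95% interval of -1.70 to -0.76 and an adjusted p of 0.00731 (limma). With every one of 35 ways to divide the arrays, the exact permutation p (two-sided) was 0.0286 for Casp1, Casp4 and Casp2 alike, the smallest p that 3 against 4 arrays allow.

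Casp1 and Casp4 are neighbours on mouse chromosome 9, with 0 genes between them in the RefSeq annotation of GRCm38.p6, and Casp12 follows Casp4 directly. Casp12, a related caspase, stayed below the floor on all 7 arrays (3.56 to 3.75 in KO and 3.61 to 3.79 in Het cells) and was not tested. The deposited annotation marks none of the probe sets of the 8 genes as cross-hybridising. Since Casp1 and Casp4 lie side by side and both fell, their promoter windows (250 bases before to 50 after the RefSeq start, GRCm38.p6, both on the + strand) are shown with that of Casp2, which rose. Casp1 is at chr9:5298267-5298566, Casp4 at chr9:5308599-5308898 (the first of 2 overlapping RefSeq entries) and Casp2 at chr6:42264735-42265034, + strand. Capitals mark the matches to the 7 motifs searched.
Casp1: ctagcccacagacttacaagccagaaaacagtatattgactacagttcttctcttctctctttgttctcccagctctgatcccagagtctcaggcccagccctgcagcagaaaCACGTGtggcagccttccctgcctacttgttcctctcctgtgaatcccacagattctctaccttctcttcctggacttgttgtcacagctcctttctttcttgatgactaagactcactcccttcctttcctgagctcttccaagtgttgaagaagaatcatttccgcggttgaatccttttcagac
Casp4: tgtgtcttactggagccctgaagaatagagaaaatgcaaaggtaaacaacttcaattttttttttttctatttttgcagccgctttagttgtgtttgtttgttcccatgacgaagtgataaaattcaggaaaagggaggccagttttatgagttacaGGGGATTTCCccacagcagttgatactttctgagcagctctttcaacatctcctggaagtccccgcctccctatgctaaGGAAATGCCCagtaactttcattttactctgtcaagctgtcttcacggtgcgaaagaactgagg
Casp2: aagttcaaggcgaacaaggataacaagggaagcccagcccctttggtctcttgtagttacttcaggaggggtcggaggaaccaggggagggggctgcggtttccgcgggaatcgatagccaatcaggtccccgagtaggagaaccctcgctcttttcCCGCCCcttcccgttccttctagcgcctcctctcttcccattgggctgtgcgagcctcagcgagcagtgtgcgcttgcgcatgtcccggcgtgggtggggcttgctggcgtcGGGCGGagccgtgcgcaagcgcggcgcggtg

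The motifs were searched on both strands and were picked with the results of these genes known: TATAAA, an interferon response core (GAAA, any 2 bases, GAAA), the STAT core TTCNNNGAA, a kappaB-like motif (GGG, any 2 bases, TTTCC), the AP-1 motif TGANTCA, the SP1 and KLF motif GGGCGG and the E-box CACGTG. The Casp4 window holds the kappaB-like motif 2 times, once on each strand, starting at positions -93 and -14 from the RefSeq start, a motif present in 1.63% of the 32851 promoters of the same length in the RefSeq table. The Casp1 window holds 1 E-box, starting at position -137, which 7.15% of all promoters hold, and none of the other motifs. The Casp2 window holds GGGCGG 2 times, a motif present in 35.7% of promoters. The windows of the neighbours thus share none of these motifs. They also differ from that of Casp2 in base composition: the windows of Casp1 and Casp4 are 48.0% and 42.0% G and C with 3 and 5 CpG dinucleotides, that of Casp2 63.7% with 26, and the medians over all promoters are 52.7% and 7. Windows of genes that did not pass lie on both sides. Those of Casp8 and Cflar are 42% and 45% G and C with 5 and 12 CpG. Those of Casp6, Casp9 and Apaf1 are 62%, 66% and 74.7% with 16, 28 and 46, and they hold GGGCGG 3, 4 and 3 times. Neither composition nor GGGCGG thus sets the called genes apart. These matches describe the letters in the windows only.

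By the likeness of their pattern over the 7 arrays, the genes closest to Casp4 among 11954 candidates were Sh2d1a, the signalling adaptor SAP (Pearson r = 0.995), the interleukin-33 receptor Il1rl1 (0.992), Podnl1 (0.989), the chemokine receptor Ccr4 (0.989) and the histone gene Hist1h2bq (0.988). Closest to Casp1 were the chemokine receptor Ccr6 (0.993), the survival genes Bcl2a1b (0.987) and Bcl2a1d (0.984), Fcrl1 (0.983) and Pdia6, a protein disulfide isomerase (0.977). Ccr4 was above the floor on 0 and Il1rl1 on 1 of the 3 KO arrays, so both passed the filter only through the Het arrays. Their KO values are thus at or below background. The 7 points fall into the 2 genotypes, which form separate clusters, and the values are given as a description only. The order within KO arrays differs between the neighbours: Casp1, like Ccr6 and both Bcl2a1 genes, was lowest on KO replicate 2, whereas Casp4 was close to equal on KO replicates 2 and 3. Bcl2a1b and Bcl2a1d are near-identical copies whose probes may not tell them apart.

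**Figure D2:**
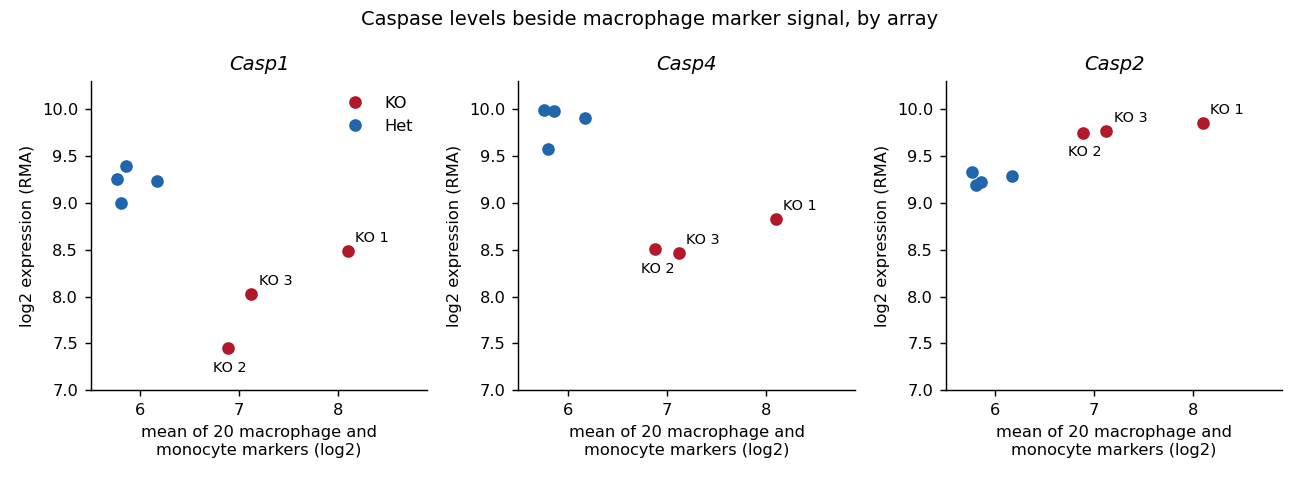
Log2 expression of Casp1, Casp4 and Casp2 (vertical axes) on each array, against the mean log2 level of the 20 macrophage and monocyte markers on that array (horizontal axes), with KO arrays in red and Het arrays in blue. The KO arrays have the higher marker means, 6.88 to 8.10, and KO replicate 1 has both the highest marker mean and the highest Casp1, Casp4 and Casp2 of the KO arrays.

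The macrophage and monocyte markers were higher on the arrays where Casp1 and Casp4 were lower. Among them, the pore-forming gene Mpeg1 rose by 3.02 ± 0.34 (SE), a value set against a Het group with only 1 of 4 arrays above the floor, and the mannose receptor Mrc1, below the floor on all 4 Het arrays, was at least 3.90-fold higher. Of 15 listed dendritic cell markers 4 were too dim to test, 5 rose and 6 did not pass, where 2.55% of all tested genes rose. Pld4 (2.77 ± 0.23) and Siglech (2.18 ± 0.18) were among those that rose, adjusted p = 0.000150 for both (limma). Itgax, which also rose, was below the floor on all 4 Het arrays and passed the filter only through the KO arrays. Within the KO arrays, the array with the highest marker mean had the highest Casp1 (8.49) and Casp4 (8.82). Without that array, KO replicate 1, Casp1 changed by -1.48 (adjusted p = 0.00378) and Casp4 by -1.38 (adjusted p = 0.00236, limma). The marker means of KO replicates 2 and 3, 6.88 and 7.12, still lay above those of all Het arrays (5.76 to 6.17). The part of macrophages in these changes was not tested. With the marker mean as a covariate Casp1 changed by -2.23 ± 0.33 (SE) and Casp4 by -1.67 ± 0.29, and neither passed (adjusted p = 0.0543 and 0.0911, limma). That covariate shares 79.8% of its variance with genotype, and with it 1 gene rose and 17 fell of all 13083. Of 11 measured markers of Treg and other CD4 T cells 0 rose and 2 fell (5 had an unadjusted p under 0.05, limma). Of all tested genes 2.55% rose and 3.24% fell. Ctla4 fell by 0.80 and the transcription factor Ikzf2 by 1.22, on the arrays where Casp1 and Casp4 fell.

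Casp2 encodes caspase-2, an initiator caspase activated on the PIDDosome, for instance in cells with extra centrosomes. It read 9.85, 9.75 and 9.76 on the KO arrays, against 9.28, 9.33, 9.22 and 9.19 on the Het arrays. Every KO array lay above every Het array, with a gap of 0.41, and both groups were tight (SD 0.06 each). The change was 0.53 ± 0.11 (SE), a 1.44-fold rise with a 95% interval of 0.29 to 0.77 and an adjusted p of 0.0160 (limma). The call lay close to the threshold when 1 array was left out: the adjusted p was 0.0502 without KO replicate 1, 0.0536 without KO replicate 3 and 0.0552 without Het replicate 3, at changes of 0.50, 0.54 and 0.52 (limma). With the macrophage marker mean as a covariate the change was 0.40 ± 0.23 and did not pass (adjusted p = 0.516). The PIDDosome genes Pidd1 (-0.30 ± 0.13, adjusted p = 0.237) and Cradd (0.24 ± 0.13, adjusted p = 0.324), the scaffold and the adaptor that bind caspase-2, did not pass (limma).

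Casp8, the initiator caspase of death receptors, read 10.98, 11.10 and 11.07 on the KO arrays, against 10.87, 11.01, 10.94 and 10.91 on the Het arrays. The groups overlapped at a change of 0.12 ± 0.11 (SE), with a 95% interval of -0.12 to 0.35 and an adjusted p of 0.605 (limma), so a change as large as those of Casp1 or Casp4 lies outside the interval. Cflar, which encodes cFLIP, a caspase-8 relative without protease activity that tunes caspase-8 on death receptors, read 9.65, 9.62 and 9.66 on the KO arrays, against 9.80, 10.23, 9.83 and 9.68 on the Het arrays. All KO arrays lay below all Het arrays, but only by 0.02, and Het replicate 2 stood above the others. Its change of -0.24 ± 0.14 (95% interval -0.55 to 0.07) did not pass (adjusted p = 0.382, limma). Cflar and Casp8 are close neighbours on chromosome 1, with 0 coding genes between them in the same annotation, and their changes had opposite signs, neither of which passed.

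Casp9, the initiator caspase of the mitochondrial route, was dim. It read 6.20, 6.20 and 5.69 on the KO arrays, against 6.32, 6.04, 6.27 and 6.31 on the Het arrays, and KO replicate 3 lay below that array's floor. The values of KO replicates 1 and 2 were identical, as were those of 138 of the 28846 probe sets on these arrays. Between any 2 arrays 83 to 186 probe sets were identical, so this does not set that pair apart. The groups overlapped (-0.21 ± 0.15, SE, adjusted p = 0.497). Apaf1, the scaffold of the apoptosome, read 6.70, 6.69 and 7.11 on the KO arrays, against 7.07, 6.81, 6.68 and 6.85 on the Het arrays, with a change of -0.02 ± 0.15 (95% interval -0.34 to 0.30, adjusted p = 0.965). Casp6, an executioner caspase that cuts lamin A, read 8.57, 8.95 and 8.68 on the KO arrays, against 8.94, 8.45, 8.49 and 8.62 on the Het arrays, with a change of 0.11 ± 0.15 (95% interval -0.23 to 0.44, adjusted p = 0.764, limma). The groups overlapped in all 3 genes.

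**Figure D3:**
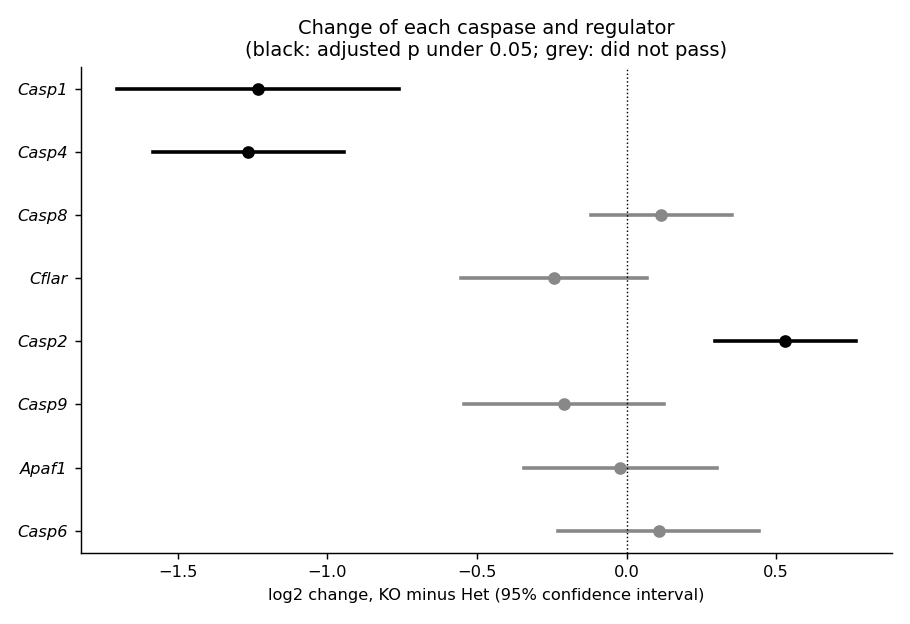
Log2 change, KO minus Het, of the 8 genes as the limma estimate with its 95% confidence interval; black marks an adjusted p under 0.05 and grey the genes that did not pass. Casp4 lies at -1.27, Casp1 at -1.23 and Casp2 at 0.53, and the intervals of Casp8, Cflar, Casp9, Apaf1 and Casp6 cross 0.

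The genes around the caspases were described in 6 lists of 59 genes, all found on the array. Of the 49 tested, 3 rose, 3 fell and 43 did not pass, at a median change of -0.02; of all tested genes 2.55% rose and 3.24% fell. These lists and the 8 genes do not overlap. The list of other caspases held Casp12 and the skin caspase Casp14, which both stayed below the floor on all arrays. With the macrophage marker mean as a covariate none of the 6 called genes passed (limma): Tnfrsf10b changed by -0.21, Tnfrsf1a by 0.61, Sptan1 by 0.67, Naip5 by -1.50, Aim2 by -1.14 and Il1b by 0.77, with adjusted p of 0.252 to 0.850.

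Among 13 death receptors and adaptors 1 rose, 1 fell and 11 did not pass, at a median of 0.05 (6 had an unadjusted p under 0.05, limma). Of all tested genes 2.55% rose and 3.24% fell. The receptor Tnfrsf1a, through which tumour necrosis factor signals, read 8.57, 8.20 and 8.59 on the KO arrays, against 7.56, 8.01, 7.57 and 7.49 on the Het arrays, a rise of 0.80 ± 0.16 (SE, adjusted p = 0.0154). The groups did not overlap, and the macrophage markers rose on the same arrays. Tnfrsf10b, the mouse TRAIL death receptor, read 5.18, 5.97 and 5.47 on the KO arrays, against 6.46, 6.78, 6.50 and 6.23 on the Het arrays, and fell by 0.96 on the log2 scale (SE 0.19, adjusted p = 0.0154, limma), with only 1 of 3 KO arrays above the floor. With the macrophage marker mean as a covariate its change was -0.21 ± 0.35 and did not pass (adjusted p = 0.850, limma). The calls of both receptors were lost without KO replicate 1 (0.74 for Tnfrsf1a and -0.78 for Tnfrsf10b) or KO replicate 3 (0.73 and -0.92). Fas (0.15 ± 0.19, adjusted p = 0.721) and Fadd, the adaptor that recruits caspase-8 (0.06 ± 0.18, adjusted p = 0.899), did not pass. Traf2, an adaptor of the tumour necrosis factor receptors, was lower on every KO array, at a change of -0.51 ± 0.14 that did not pass (adjusted p = 0.0569).

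Of 11 inhibitor of apoptosis (IAP) genes and mitochondrial factors 0 rose and 0 fell (limma; 1 had an unadjusted p under 0.05), at a median of -0.10. The caspase inhibitor Xiap changed by -0.14 ± 0.12 (SE) and cytochrome c, Cycs, by -0.11 ± 0.12. The member with the smallest p, the mitotic survivin gene Birc5, read 7.54, 7.02 and 6.84 on KO and 8.21, 7.44, 7.53 and 7.64 on Het arrays and did not pass (adjusted p = 0.159). Birc6 (0.30 ± 0.15, adjusted p = 0.312) was next. Of 11 tested caspase substrates 1 rose and 0 fell (1 had an unadjusted p under 0.05, limma), where 2.55% and 3.24% of all tested genes did. The spectrin gene Sptan1 rose to 9.33, 9.41 and 9.47 on KO arrays, against 8.81, 8.96, 9.03 and 8.82 on Het arrays (0.50 ± 0.11, adjusted p = 0.0271, limma). That call was lost when any of KO replicates 2 and 3 or Het replicates 1 to 3 was left out, at changes of 0.47 to 0.54. Of the 3 necroptosis genes 0 passed and 0 had an unadjusted p under 0.05, with the kinase Ripk3 at 0.13 ± 0.11 and the nucleic acid sensor Zbp1 at 0.19 ± 0.11.

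Of 18 inflammasome and pyroptosis genes, the partners of caspase-1 and caspase-11, 11 were tested and 7 were too dim to test. Among the 11, 1 rose, 2 fell and 8 did not pass, at a median of -0.05 (6 had an unadjusted p under 0.05, limma). KO lay below Het without overlap in 5 and above in 2, against 9.82% and 9.68% of all tested genes. Nek7 was among those above but did not pass (0.23 ± 0.11, SE, adjusted p = 0.259, limma). Of all tested genes 2.55% rose and 3.24% fell. Naip5, the sensor of bacterial flagellin, read 6.06, 5.37 and 5.92 on the KO arrays, against 6.59, 7.28, 6.95 and 6.78 on the Het arrays (-1.12 ± 0.20, SE, adjusted p = 0.00825). Its Naip copies are similar in sequence and may share probes, so the gene is uncertain, and 2 of 3 KO arrays were above the floor. The copy Naip2 was also lower on every KO array but did not pass (-0.49 ± 0.15, adjusted p = 0.0882, limma). Naip6 was lower on every KO array too but was too dim to test, with only 1 Het array above the floor. Naip1 stayed below the floor on all arrays. The DNA sensor Aim2 read 7.21, 6.53 and 7.17 on the KO arrays, against 7.44, 7.82, 7.98 and 7.65 on the Het arrays (-0.75 ± 0.19, adjusted p = 0.0425, limma). The Aim2 call was close to the threshold and was kept in only 1 of the 7 fits with 1 array left out, where its change ran from -0.87 to -0.53. Of 9 other settings 5 kept it. Among those that lost it were centring each array on its median (adjusted p = 0.0713), quantile normalization (0.0548) and no filter on dim genes (0.0606, limma).

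Il1b, the cytokine that caspase-1 matures, rose while Casp1 fell. It read 6.66, 6.40 and 6.79 on the KO arrays, against 5.55, 5.48, 6.21 and 5.92 on the Het arrays (0.83 ± 0.18, SE, adjusted p = 0.0259), with 2 of 4 Het arrays above the floor. Il1b no longer passed when KO replicate 1 (0.81) or 3 (0.74), or Het replicate 1 (0.75) or 2 (0.72), was left out. Macrophages are a known source of Il1b, their markers rose in KO cells too, and their part in the change was not tested. The adaptor Pycard, which links sensors to caspase-1, was lower on every KO array (10.40, 10.16 and 10.15, against 11.08, 10.68, 10.57 and 10.45 on Het arrays) but did not pass (-0.46 ± 0.16, adjusted p = 0.132). Gasdermin D, Gsdmd, the shared substrate of caspase-1 and caspase-11, changed by -0.05 ± 0.11 (95% interval -0.29 to 0.20, adjusted p = 0.877, limma). The sensors Nlrp3 and Nlrc4 stayed below the floor on all arrays.

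**Figure D4:**
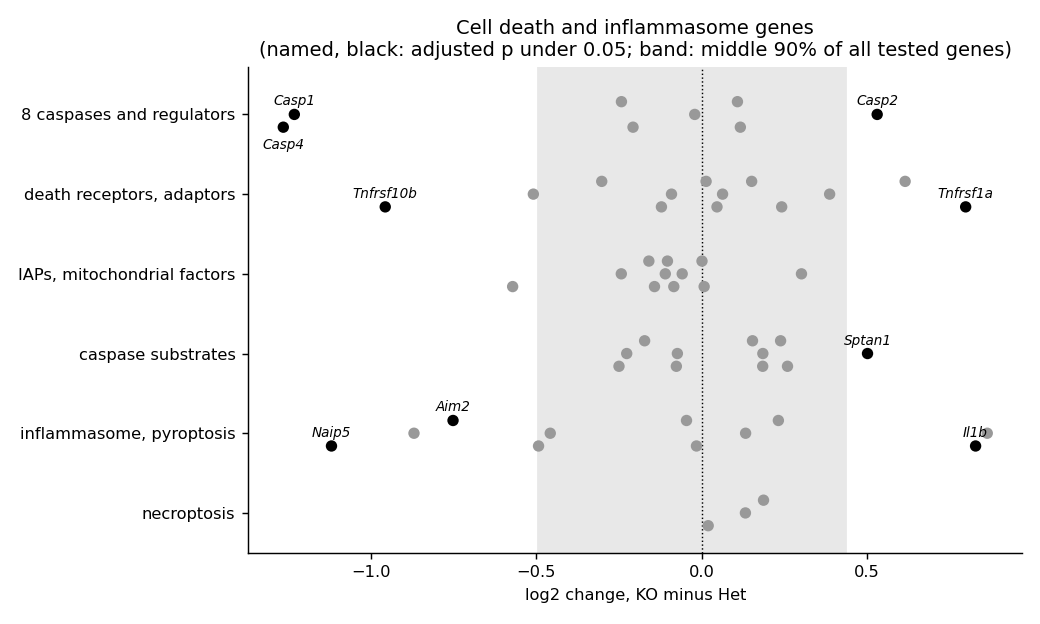
Log2 change, KO minus Het, of each tested gene of the 8 caspases and regulators and of the 5 surrounding lists with a tested gene (rows), with the grey band spanning the middle 90% of all 13083 tested genes (-0.50 to 0.44). Named black points have an adjusted p under 0.05, and the 8 genes hold calls on both sides, with Casp1 and Casp4 at the low end and Casp2 above the band.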

How the data were processed

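Deposited values were used as given: log2 expression that the authors made with RMA in Affymetrix Expression Console 1.1, per the submitters' processing notes. RMA evens out the arrays, so a change shared by most genes would be reduced. RNA was amplified from small inputs with NuGEN kits, per the labels' protocols. The 2 deposited tables hold the same values. The array design and build were not given in the sources used here.

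Groups follow the genotype in the labels. The labels number no replicates: the replicate numbers used here were given within each genotype in the order of the deposited samples, only name an array and pair nothing. Nothing there says that samples are separate animals: p-values therefore reflect only how far these samples spread, possibly for technical reasons. No batch is given. A gene with several probe sets was represented by its brightest on average. List symbols were matched directly, 1 of 148 through a RefSeq synonym and 1 not at all. The test was limma 3.58.1 (lmFit and eBayes, R 4.3.3), tested on simulated data. The arrays limit the precision by their number.

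The 8 genes, the lists and the settings were chosen with earlier results of these data known. Named are the 8 genes, Pggt1b, each called gene of a surrounding list (otherwise the 2 with the smallest p), the 2 markers with the smallest p of each of 6 cell type lists, Foxp3, and the 5 genes most like each of the 2 members with the smallest p. Others were named after their values had been seen, and some listed genes are not reported here. B and plasma cell and erythroid and platelet markers gave 0 calls (0 at an unadjusted p under 0.05 in each, limma), with Cd79b, Ebf1, Hba-a1 and Hbb-bs first by p. CD8 T and NK markers gave 3 rises and 1 fall of 6 tested, where 2.55% and 3.24% of all tested genes rose and fell. Among them Tyrobp (1.76), also a myeloid gene, and Nkg7 (-1.10) were first by p.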

Additional observations from a re-analysis of the deposited data

Results flagged for a closer look

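Dixon's test was applied to the 4 Het arrays and not to the 3 KO arrays. In it, 4 of 42 genes had 1 array apart from the other 3, where chance gives about 1 in 20. Casp9 read 6.04 on Het replicate 2 and 6.27 to 6.32 on the others. Tnfrsf1a read 8.01 on the same array and 7.49 to 7.57 on the others. Birc6 read 8.86 on Het replicate 1 and 9.33 to 9.41 on the others, and Foxp3 read 11.01 on that array and 11.22 to 11.24 on the others.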

How the results depend on the processing

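The 8 genes gave 127 values under 16 other settings, of which 113 kept their direction and side of the threshold, 6 lost a call and 8 changed sign. All sign changes were in genes that never passed: Apaf1 (0.041 with each array centred on its median, 0.042 after quantile normalization, 0.069 with array weights, 0.017 with the macrophage marker mean as a covariate, and -0.16 to 0.052 with 1 array left out) and Casp6 (-0.000838 to 0.21 with 1 array left out). With the marker covariate 0 of the 8 genes rose and 0 fell (limma; 0 and 2 at an unadjusted p under 0.05), with Casp1 at -2.23, Casp4 at -1.67 and Casp2 at 0.40, 0 surrounding genes rose and 0 fell (3 and 8 unadjusted), and 1 and 17 of all genes were called. It leaves fewer residual degrees of freedom and overlaps genotype. With 1 array left out, Casp1 and Casp4 were called in all 7 fits (-1.48 to -0.96 and -1.38 to -1.20) and Casp2 in 4 of 7 (0.50 to 0.56), so 0 to 1 of the 8 rose (1 in each fit at an unadjusted p under 0.05). All genes higher then numbered 180 to 293 and lower 234 to 459, and 0 to 4 surrounding genes rose (at least 5 unadjusted). Array weights gave 547 higher and 697 lower genes and 5 surrounding genes higher and 5 lower. Surrounding genes lower were 6 with limma's trend and robust options. Casp9 has no value with all 7 arrays required above the floor. Of all called genes 44.0% were higher as reported, 58.2% after centring and 50.5% after quantile normalization. No paired analysis was possible because the labels give no replicate numbers. Dim signals limit Casp9, Tnfrsf10b and Naip5, and also Il1b, Il18, Nlrp1b, Il1rl1 and Ccr4.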

Other observations

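Il18, the other cytokine that caspase-1 matures, differed within the KO group: it read 8.24 on KO replicate 1, 5.60 on KO replicate 2 and 5.94 on KO replicate 3, against 5.74, 6.09, 5.64 and 5.44 on the Het arrays. KO replicate 1 was also the array with the highest mean of macrophage and monocyte markers, 8.10. Il18 lay below the floor on KO replicate 2 and Het replicate 4. The kinase Ripk1, which acts with caspase-8 and Cflar at death receptors, read 8.48, 8.70 and 8.83 on the KO arrays, against 8.41, 8.29, 8.26 and 8.18 on the Het arrays, a change of 0.39 ± 0.12 (SE) that did not pass (adjusted p = 0.101, limma). The sensor Nlrp1b read 6.37, 6.56 and 5.65 on the KO arrays, against 6.99, 7.48, 7.23 and 6.56 on the Het arrays, so the groups met at their edges, and it did not pass either (-0.87 ± 0.25, adjusted p = 0.0708, limma). Its value on KO replicate 3 lay below that array's floor.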
